A study of Mus musculus with 30 samples.

Results

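The 5 genes of mechanical sensing described here were followed through lumbar dorsal root ganglia of chemotherapy-treated mice: Piezo1, Piezo2, Stoml3, Tmem120a and Tmem63b. They were taken by gene name, and all 5 names had 1 row each among the 56686 genes of the expression table. Ganglia L3 to L5 of both sides came from male wild-type C57BL/6J mice given CVAD, 1 of its components alone, or saline. CVAD combines cyclophosphamide, vincristine, doxorubicin (Adriamycin) and dexamethasone. On day 2 the drug groups were CVAD, cyclophosphamide and dexamethasone, set against saline of day 2. On day 8 they were CVAD, cyclophosphamide, vincristine, doxorubicin and dexamethasone, set against saline of day 8. Each of the 10 groups holds 3 libraries. The labels do not say whether a library is 1 animal or a pool, so p-values measure the spread between libraries, and age and dose are not given in the sources used here. RNA was depleted of ribosomal RNA, not selected for poly(A).

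Sensory neurons of the dorsal root ganglion turn touch, limb position and painful pressure into electrical signals through ion channels that open when the membrane is stretched or indented. PIEZO2 is the main such channel of light touch and proprioception, while PIEZO1 serves vessels and red cells, where it senses blood flow and cell volume. Of the other 3 proteins, STOML3 is a membrane protein of the stomatin family that raises the mechanical sensitivity of PIEZO channels, TMEM63B is a stretch- and osmolarity-gated cation channel of the OSCA/TMEM63 family, and TMEM120A (TACAN) was proposed as a channel of mechanical pain, a role that is disputed. Vincristine binds tubulin, and pain on touch is a common sign of the neuropathy it causes.

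The sequences around the starts of transcription are shown for 4 of the genes, which differed in base composition. Whether the sequence has a part in the level of a gene was not tested. Each window runs from 250 bases before to 50 bases after the start, 5′ to 3′ on the gene's strand, and is taken from RefSeq on GRCm38.p6. Capitals mark GGGCGG (the GC box), CCAAT (the CCAAT box) and TATAAA (the TATA box) on either strand, none of which overlap here. No window is shown for Piezo2.
Piezo1: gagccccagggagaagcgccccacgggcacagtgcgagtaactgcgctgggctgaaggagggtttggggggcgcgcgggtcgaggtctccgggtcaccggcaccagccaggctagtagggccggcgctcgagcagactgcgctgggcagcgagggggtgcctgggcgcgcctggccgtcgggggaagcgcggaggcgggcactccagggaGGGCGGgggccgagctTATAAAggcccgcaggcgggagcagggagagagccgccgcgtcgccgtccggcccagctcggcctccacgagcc
Tmem63b: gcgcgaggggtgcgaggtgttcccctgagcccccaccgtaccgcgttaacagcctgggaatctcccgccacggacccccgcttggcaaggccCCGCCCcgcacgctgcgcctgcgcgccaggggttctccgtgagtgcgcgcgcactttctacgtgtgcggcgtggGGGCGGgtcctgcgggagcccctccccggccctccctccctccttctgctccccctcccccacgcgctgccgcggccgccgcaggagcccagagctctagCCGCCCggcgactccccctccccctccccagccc
Tmem120a: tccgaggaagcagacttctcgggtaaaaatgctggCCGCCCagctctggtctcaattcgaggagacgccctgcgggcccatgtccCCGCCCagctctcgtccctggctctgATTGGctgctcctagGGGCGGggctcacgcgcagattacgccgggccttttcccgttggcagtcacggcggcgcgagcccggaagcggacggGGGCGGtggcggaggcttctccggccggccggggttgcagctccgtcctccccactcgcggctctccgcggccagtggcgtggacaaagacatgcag
Stoml3: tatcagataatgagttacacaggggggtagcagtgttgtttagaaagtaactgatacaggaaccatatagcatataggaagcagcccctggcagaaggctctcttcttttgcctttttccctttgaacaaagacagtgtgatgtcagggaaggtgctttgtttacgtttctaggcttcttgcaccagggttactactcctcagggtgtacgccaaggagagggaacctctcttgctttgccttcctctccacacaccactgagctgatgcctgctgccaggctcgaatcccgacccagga
The Piezo1 window lies at chr8:122551280-122551579, that of Tmem63b at chr17:45686169-45686468 and that of Tmem120a at chr5:135744123-135744422, all on the minus strand. The Stoml3 window lies at chr3:53488457-53488756 on the plus strand. Piezo1 and Tmem63b had 34 CG pairs each and Tmem120a 32, while Stoml3 had 4, and the median of all 32851 windows was 7. The share of windows with fewer CG pairs was 92.3% for Piezo1 and Tmem63b, 90.5% for Tmem120a and 31.4% for Stoml3. The GC content was 75% for Piezo1, 76.0% for Tmem63b, 69.0% for Tmem120a and 49.3% for Stoml3, beside a median of 52.7% over all windows. Piezo1 held 1 GC box and 1 TATA box that begins 24 bases before the start, a motif found in 13.6% of windows. Tmem63b held 3 GC boxes, and Tmem120a held 4 GC boxes with 1 CCAAT box. GC boxes occurred in 35.7% of all windows and CCAAT boxes in 37.4%. Stoml3 had no match to the 3 motifs.

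Values are TPM, the share of a library's transcripts corrected for transcript length, so levels can be compared between genes. The 30 libraries had 25342 to 27972 genes above 0. The share of TPM from protein-coding genes was 60.5 to 73.8%, and genes of the misc_RNA type, small structural RNAs, carried 13.4 to 28.3%. Since the TPM of a library sum to a fixed total, a larger share of other RNA leaves less for all its coding genes. All 12 genes of the sensory neuron list were above the filter, with a summed level of 2000 to 2766 TPM. Markers of neighbouring tissue varied widely, with summed levels of 8.32 to 865 TPM for 8 skeletal muscle genes, 1.58 to 223 TPM for 8 red blood cell genes and 82.9 to 256 TPM for 8 spinal cord glia genes. Of the spinal cord list, Gfap (up to 51.9 TPM), Slc1a2 (up to 41.2 TPM) and Aldoc (mean 79.7 TPM) were above 0 in all 30 libraries. Mobp was above 0 in 29 (up to 68.0 TPM), Hapln2 in 27, Mog in 19 and Opalin in 13. Aqp4 was listed at 0 in every library, which in this table may be a failed estimate.

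The 5 genes spanned a wide range of levels. Piezo2 (ENSMUSG00000041482, chromosome 18, 63143284 to 63520254) averaged 199.7 ± 16.2 TPM over the 30 libraries (SD) and ranked 179 among the 15314 tested protein-coding genes. Tmem63b (ENSMUSG00000036026, chromosome 17, 45971097 to 45997831) averaged 154 ± 11.3 TPM, at rank 466. Tmem120a (ENSMUSG00000039886, chromosome 5, 135764339 to 135773302) averaged 33.9 ± 3.41 TPM, more than 53.5% of tested coding genes. Piezo1 (ENSMUSG00000014444, chromosome 8, 123208437 to 123278068) averaged 17.5 ± 2.11 TPM, more than 34.6% of them. All 4 lie on the minus strand, in coordinates of the deposited table.

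The order of the 4 genes was the same in each of the 30 libraries. The lowest Piezo2 to Tmem63b ratio in any library was 1.19, the lowest Tmem63b to Tmem120a ratio was 3.83, and the lowest Tmem120a value (26.7 TPM) was above the highest Piezo1 value (21.3 TPM). The Piezo2 transcript level was 9.29 to 15.5 times that of Piezo1, with a median of 11.2.

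Stoml3 (ENSMUSG00000027744, chromosome 3, plus strand, 53396074 to 53415923) was listed at 0 in 29 of 30 libraries. The exception was vincristine replicate 2 on day 8, at 0.469 TPM. The gene did not pass the filter (1 TPM or more in at least 3 libraries) and was not tested. A value of 0 in this table need not mean that a transcript is missing: each of the 37 mitochondrial genes had only zeros over the 30 libraries, and so had Cacna1h, a calcium channel gene of touch neurons. Stoml3 is therefore described only as listed at 0, and the counts below are over the 4 genes tested.

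**Figure D1:**
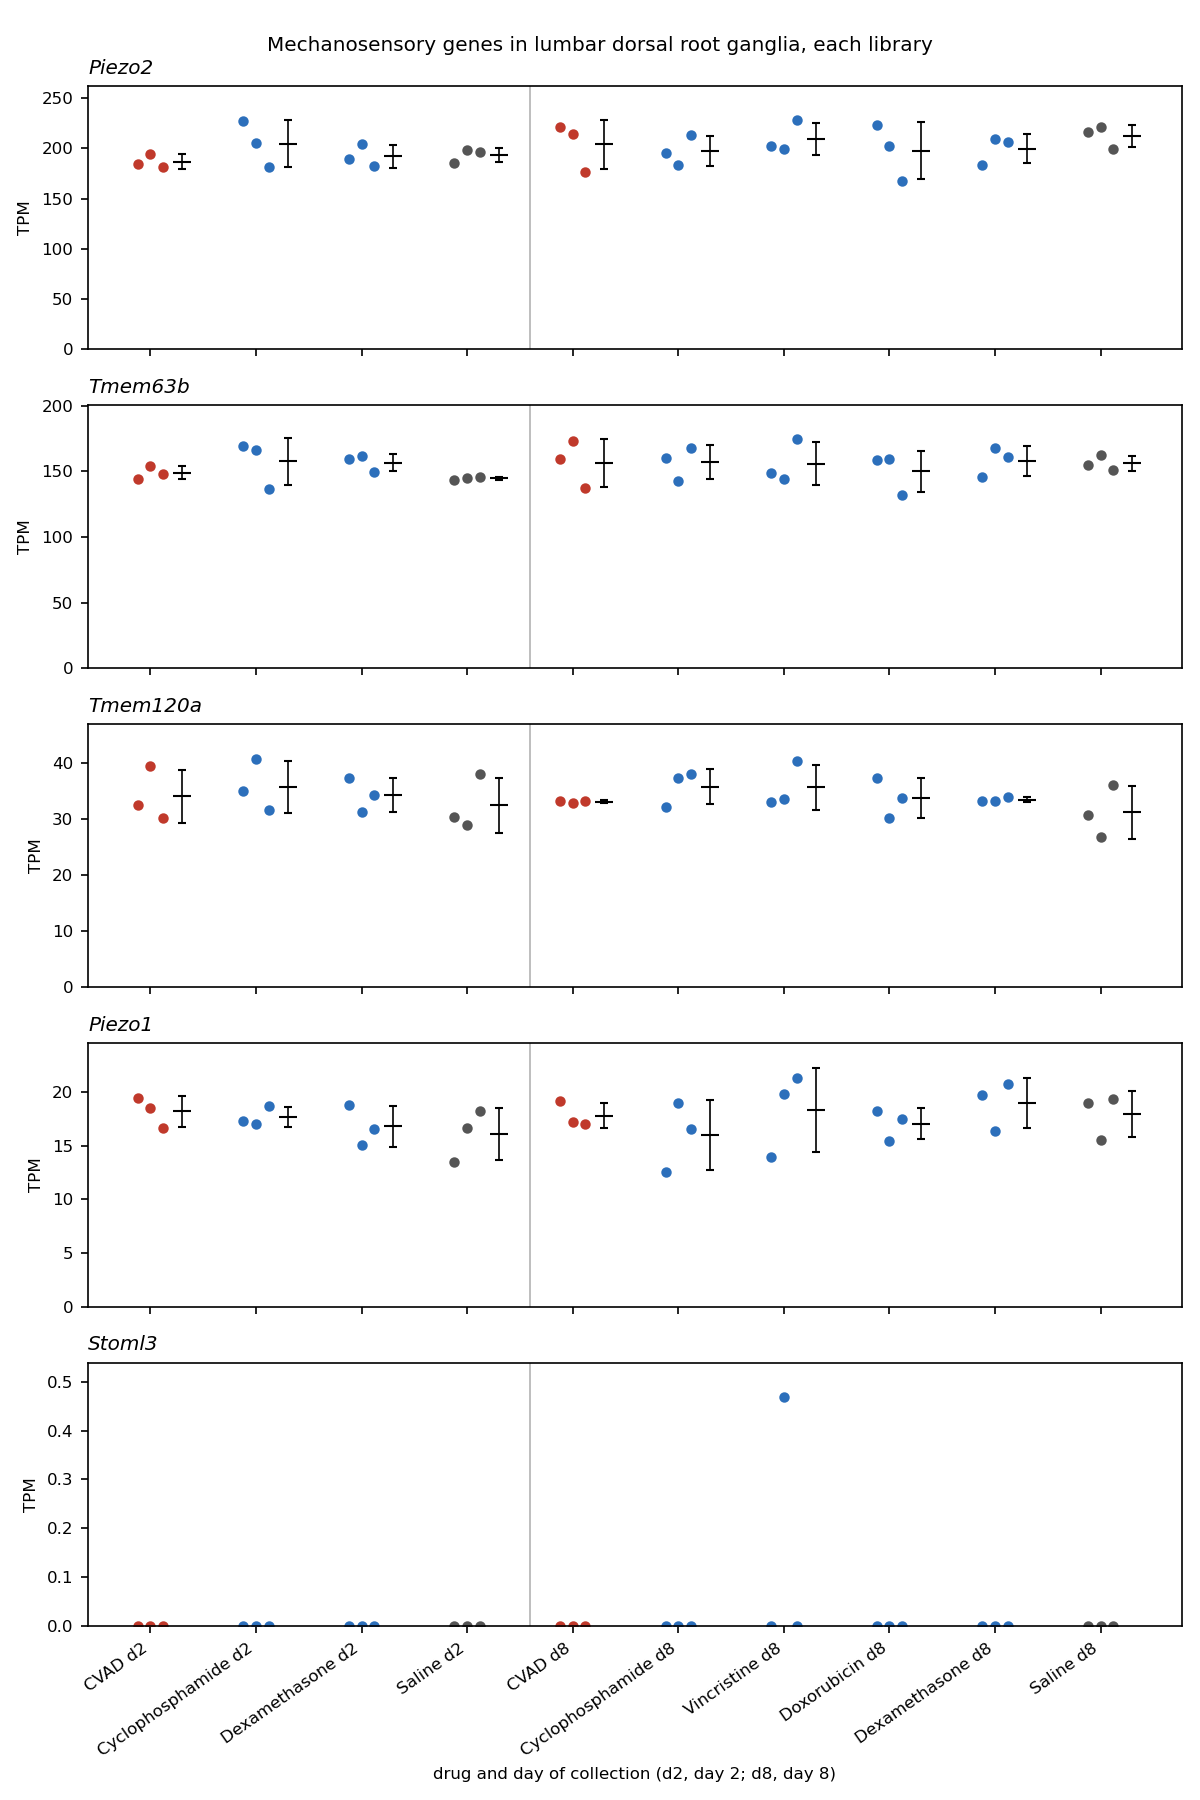
TPM of each of the 5 genes in each library (points), with the group mean and SD beside them (not drawn for Stoml3), by drug and day; the vertical line parts day 2 from day 8, and red marks CVAD, blue single drugs and grey saline. The Piezo2 points lie between 167 and 228 TPM and those of Piezo1 between 12.5 and 21.3 TPM, with no group set apart, and Stoml3 is above 0 in 1 library.

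No difference between a drug and its saline controls was detected for any of the 4 tested genes. A linear model with 1 mean per group (limma, on log2(TPM + 1)) gave 0 of 4 genes past an adjusted p of 0.05 in each of the 8 comparisons, and 0 of 4 with an unadjusted p under 0.05. Few genes of the whole table passed either: 0.0432% of the 25434 tested genes for CVAD, 0.0118% for cyclophosphamide and 0.00393% for dexamethasone on day 2. On day 8 the share was 0% for CVAD, 0.00786% for cyclophosphamide, and 0% for vincristine, for doxorubicin and for dexamethasone. Over all tested genes 3.26 to 8.19% had an unadjusted p under 0.05 in these comparisons. In whole ganglia fewer cells of a type and less RNA per cell cannot be told apart.

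Piezo2 was read first as the principal touch channel. On day 2 it was at 184, 195 and 181 TPM in CVAD ganglia, 228, 205 and 181 in cyclophosphamide, 189, 205 and 182 in dexamethasone, and 186, 198 and 197 in saline. Of the 3 CVAD libraries 2 lay under the lowest saline library and 1 within the saline range, and cyclophosphamide held both the highest value of the day and one of the lowest. On day 8 it was at 221, 214 and 176 TPM in CVAD, 195, 183 and 213 in cyclophosphamide, 202, 199 and 228 in vincristine, 223, 202 and 167 in doxorubicin, 183, 209.6 and 206 in dexamethasone, and 216, 221 and 199.8 in saline. Every drug group overlapped saline. CVAD of day 2 had the lowest group mean of all 10 (187 ± 7.21 TPM, SD, n = 3), and saline of day 8 the highest (212 ± 11.2 TPM).

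The Piezo2 log2 fold changes against saline ran from −0.11 (doxorubicin, day 8; SE 0.099) to 0.07 (cyclophosphamide, day 2; SE 0.099), with 7 of 8 below 0 and adjusted p-values in limma of 0.912 or more. The 3 comparisons of day 2 share their saline libraries, as do the 5 of day 8, so their signs are not independent, and relative to neuron markers (below) 3 of those 7 were above 0. For vincristine the log2 fold change was −0.02 ± 0.099 (SE, as after every log2 fold change here) and for CVAD on day 8 it was −0.06 ± 0.099. The 95% intervals of all 8 comparisons lay between 0.803-fold and 1.21-fold on the log2(TPM + 1) scale.

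Tmem63b, the stretch- and osmolarity-gated channel, was at 144, 154 and 148 TPM in CVAD ganglia of day 2, 169.7, 166 and 137 in cyclophosphamide, 159, 162 and 149 in dexamethasone, and 144, 145 and 146 in saline. Saline of day 2 was the tightest and lowest of the 10 groups (145 ± 1.03 TPM). The 3 dexamethasone libraries all stood above it, the 1 case among the 4 genes in which dexamethasone and saline of day 2 did not overlap, while 8.91% of all tested genes did not overlap in that comparison. Its log2 fold change was 0.11 ± 0.095 (limma, adjusted p = 0.994). In the other comparisons with saline 0 of 4 genes had groups that did not overlap, against 13.5% of tested genes for CVAD and 11.5% for cyclophosphamide on day 2. On day 8 that share was 9.99% for CVAD, 9.48% for cyclophosphamide, 6.18% for vincristine, 5.99% for doxorubicin and 6.51% for dexamethasone.

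On day 8 Tmem63b was at 159, 173 and 137 TPM in CVAD, 161, 143 and 168 in cyclophosphamide, 149, 144 and 174 in vincristine, 159, 159.7 and 132 in doxorubicin, 146, 168 and 161 in dexamethasone, and 155, 163 and 151 in saline. The drug groups reached both above and below saline. Over the 8 comparisons its log2 fold change ran from −0.06 to 0.12, each with an SE of 0.095, and the 95% intervals lay between 0.837-fold and 1.24-fold.

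Tmem120a encodes the disputed channel TACAN. On day 2 it was at 32.5, 39.3 and 30.2 TPM in CVAD, 34.9, 40.7 and 31.6 in cyclophosphamide, 37.2, 31.2 and 34.2 in dexamethasone, and 30.2, 28.9 and 37.9 in saline. On day 8 it was at 33.1, 32.7 and 33.2 TPM in CVAD, 32.1, 37.2 and 37.9 in cyclophosphamide, 33.0, 33.6 and 40.2 in vincristine, 37.3, 30.1 and 33.7 in doxorubicin, 33.2, 33.1 and 33.9 in dexamethasone, and 30.6, 26.7 and 36.1 in saline. Saline held the lowest library of each day and also 1 library near the top, so each drug group overlapped it. All 8 log2 fold changes were above 0 (CVAD of day 2 was at −0.0061 under median-ratio scaling), from 0.07 (CVAD, day 2) to 0.20 (cyclophosphamide, day 8), each with an SE of 0.12. Each set of comparisons rests on the same 3 saline libraries. On day 2 Tmem120a was at 0.07 for CVAD, 0.14 for cyclophosphamide and 0.08 for dexamethasone. The medians of all tested genes were above 0 there too, at 0.07, 0.06 and 0.06 in the same order. On day 8 those medians ran from −0.04 (cyclophosphamide) to 0.02 (CVAD). The value with the smallest unadjusted p of the 4 genes in any comparison with saline was that of cyclophosphamide on day 8, at 35.7 ± 3.19 TPM in cyclophosphamide and 31.1 ± 4.69 in saline (SD, n = 3 each), with an unadjusted limma p of 0.116 and an adjusted p of 0.947.

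Piezo1, the channel of vessels and red cells, was the lowest and most variable of the 4. On day 2 it was at 19.4, 18.5 and 16.6 TPM in CVAD, 17.3, 17.01 and 18.7 in cyclophosphamide, 18.8, 15.01 and 16.5 in dexamethasone, and 13.5, 16.6 and 18.2 in saline. On day 8 it was at 19.1, 17.2 and 17.01 TPM in CVAD, 12.5, 18.98 and 16.5 in cyclophosphamide, 13.9, 19.8 and 21.3 in vincristine, 18.2, 15.5 and 17.5 in doxorubicin, 19.7, 16.4 and 20.8 in dexamethasone, and 18.9, 15.5 and 19.4 in saline. The highest library of all 30 and the third lowest were both of vincristine. The log2 fold changes ran from −0.17 (cyclophosphamide, day 8) to 0.17 (CVAD, day 2), each with an SE of 0.15, and the 95% intervals between 0.719-fold and 1.40-fold were the widest of the 4 genes.

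**Figure D2:**
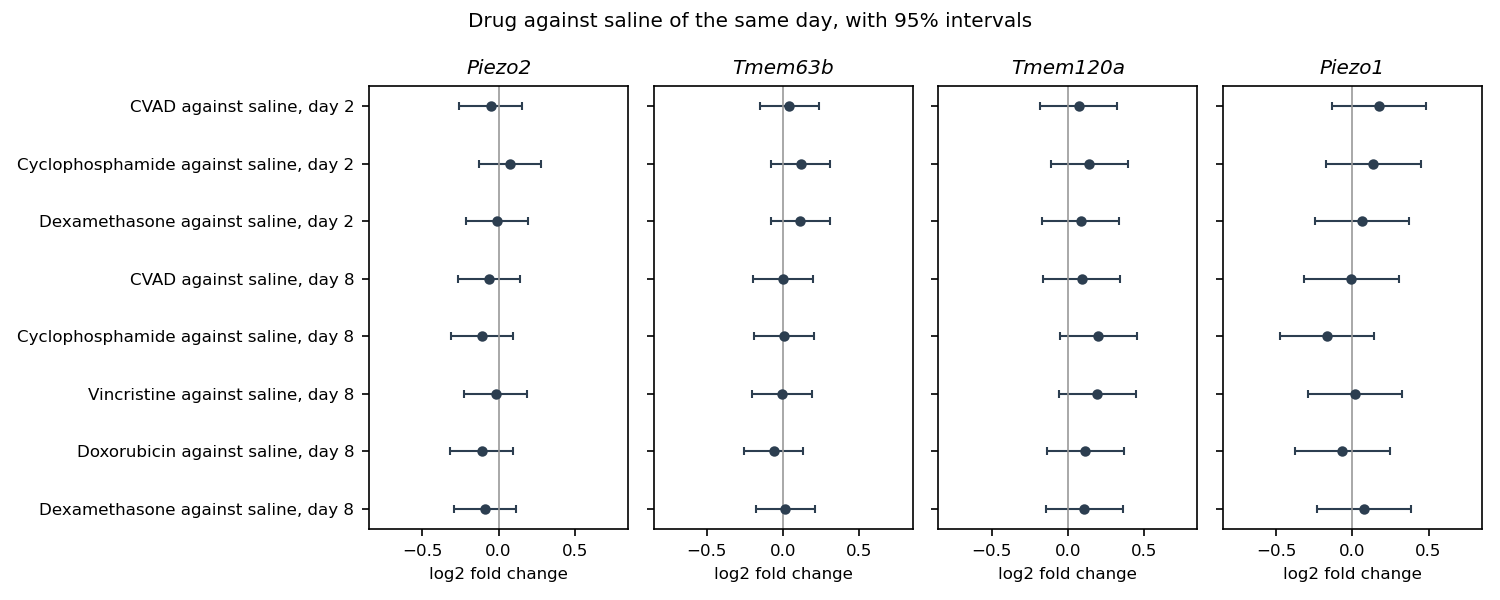
Log2 fold changes (x axis, on the log2(TPM + 1) scale) of 4 genes in 8 comparisons with day-matched saline (rows), with 95% intervals from limma. Every interval crosses 0, and those of Piezo1 are the widest.

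No difference was detected when all 10 groups were tested at once either. The limma F test for any difference among group means gave an F of 0.547 for Piezo1, 0.656 for Piezo2, 0.550 for Tmem120a and 0.397 for Tmem63b, with an adjusted p of 0.999 for each. It called 0% of all 25434 tested genes, of which 5.61% had an unadjusted p under 0.05. The order of the group means is therefore a description only, and no neighbours in it differ beyond their spread. Piezo2 was lowest in CVAD of day 2 and highest in saline of day 8. Tmem63b was highest in dexamethasone of day 8 (158 ± 11.4 TPM) and lowest in saline of day 2 (145 TPM). Tmem120a was highest in cyclophosphamide of day 8 (35.7 TPM) and lowest in saline of day 8 (31.1 TPM). Piezo1 was highest in dexamethasone of day 8 (18.96 ± 2.30 TPM) and lowest in cyclophosphamide of day 8 (16.01 ± 3.24 TPM).

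CVAD was next compared with its components, to ask whether the combination differs from a single drug. In each of these 6 comparisons 0 of 4 genes passed in limma, and 0 of 4 had an unadjusted p under 0.05. Of all tested genes 0.00393% passed against cyclophosphamide on day 2 and 0% in the other 5 comparisons. All 4 genes overlapped between the groups in each comparison. The share of tested genes that did not was 9.04% against cyclophosphamide and 7.91% against dexamethasone on day 2. On day 8 it was 10.8% against cyclophosphamide, 7.75% against vincristine, 9.05% against doxorubicin and 10.2% against dexamethasone. The gene of smallest p on day 2 was Piezo2 against cyclophosphamide, at 187 ± 7.21 TPM in CVAD and 205 ± 23.2 in cyclophosphamide (log2 fold change −0.13 ± 0.099), and Tmem63b against dexamethasone (−0.07 ± 0.095). On day 8 it was Piezo1 against cyclophosphamide, at 17.8 ± 1.17 TPM in CVAD and 16.01 ± 3.24 in cyclophosphamide (0.16 ± 0.15). Against vincristine it was Tmem120a, at 33.0 ± 0.254 TPM in CVAD and 35.6 ± 3.99 in vincristine (−0.10 ± 0.12). Against doxorubicin it was Tmem63b (0.06 ± 0.095), and against dexamethasone Piezo1 (−0.08 ± 0.15). The lowest adjusted p over the 24 values was 0.964. The 95% intervals of the 4 genes against single drugs lay between 0.762-fold and 1.38-fold.

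Saline ganglia of the 2 days were compared to show how the genes varied with no drug given. Both Piezo2 and Tmem63b were higher in all 3 libraries of day 8 than in all 3 of day 2, so 2 of 4 genes did not overlap, beside 13.3% of all tested genes. Piezo2 averaged 212 ± 11.2 TPM on day 8 and 194 ± 6.85 on day 2 (log2 fold change 0.13 ± 0.099, limma adjusted p = 0.795), and Tmem63b averaged 156 ± 5.91 TPM on day 8 and 145 ± 1.03 on day 2 (0.11 ± 0.095, adjusted p = 0.802). The summed TPM of the 12 neuron markers moved with them, at 2376 to 2719.7 in saline of day 8 and 2203 to 2349.7 in saline of day 2, with no overlap. Relative to those markers the Piezo2 log2 fold change was −0.0067. The median of all tested genes was 0.067 as deposited. In this comparison 0 of 4 genes were called, and 0.00393% of all tested genes. The difference between drug and saline was then compared between days by the limma interaction test, which called 0 of 4 genes for CVAD, for cyclophosphamide and for dexamethasone. The shares of all tested genes were 0.0826% for CVAD and 0% for cyclophosphamide and for dexamethasone. The values of smallest p were those of Piezo1 for CVAD (day 8 minus day 2, −0.18 ± 0.21) and cyclophosphamide (−0.30 ± 0.21, adjusted p = 0.687, beside a median of −0.11 over all tested genes), and of Tmem63b for dexamethasone (−0.10 ± 0.13).

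Other genes of mechanical sensing gave the same count of calls. The list held 24 genes, and 21 were tested: relatives of the 5 genes, PIEZO regulators, acid-sensing channel subunits and stretch-gated potassium channels. In each of the 8 comparisons with saline 0 of 21 rose and 0 of 21 fell by limma at an adjusted p of 0.05. Of all 25434 tested genes, 0 to 0.0432% were called there, and 3.26 to 8.19% had an unadjusted p under 0.05. The median log2 fold change of the list ran from −0.03 (doxorubicin, day 8) to 0.07 (cyclophosphamide, day 2), and that of all tested genes from −0.04 to 0.07. In these 8 comparisons 1 gene of the list had an unadjusted p under 0.05: Kcnk4, which encodes the stretch-gated potassium channel TRAAK, was at 27.2 TPM in CVAD and 20.2 TPM in saline on day 8 (log2 fold change 0.39 ± 0.18, limma adjusted p = 0.822). On day 2 the smallest p belonged to Kcnk10, the TREK-2 channel, for CVAD (14.8 TPM against 17.2 in saline), to Tmem120b, the relative of Tmem120a, for cyclophosphamide (32.6 TPM against 27.1), and to Stoml1, a stomatin-like gene, for dexamethasone (103 TPM against 91.7). On day 8 it belonged to Stoml2, whose protein sits in mitochondria, for cyclophosphamide (53.9 TPM against 47.7 in saline), to Kcnk2, the TREK-1 channel, for vincristine (35.5 TPM against 25.8), and to Tmem87a, a proposed touch channel subunit, for doxorubicin (50.7 TPM against 52.8) and dexamethasone (49.5 TPM against 52.8). None of these 8 values passed, the lowest adjusted p being 0.717. In the other 10 comparisons 0 of 21 were called as well, beside 0 to 0.0826% of all tested genes. The F test called 0 of 21, beside 0% of all tested genes.

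By level, Piezo2 was above each of the 21 tested genes in its mean. The nearest was Anxa6, a membrane-binding annexin, at 193 ± 16.97 TPM over the 30 libraries (SD), and then Atp2a2, the calcium pump that binds PIEZO1, at 138 ± 9.52 TPM. The stomatin relatives Stom, Stoml1 and Stoml2 were at 40.7 ± 3.61, 98.4 ± 7.70 and 49.5 ± 4.25 TPM, unlike Stoml3. The other TMEM63 genes, Tmem63a and Tmem63c, were at 43.7 ± 3.46 and 78.6 ± 5.84 TPM, under Tmem63b, and Tmem120b was at 30.1 ± 3.45 TPM, near Tmem120a. Mdfic, an auxiliary subunit of PIEZO channels, was at 34.5 ± 4.999 TPM, and its relative Mdfi at 3.83 ± 1.25. Mtmr2, a phosphatase that limits PIEZO2 currents, was at 70.7 ± 7.73 TPM, Tmem150c, which slows the closing of PIEZO channels, at 74.1 ± 6.93, and Pkd2, a polycystin, at 48.1 ± 4.92. Asic1, Asic2 and Asic3 were at 94.6 ± 8.00, 86.0 ± 7.67 and 84.8 ± 6.86 TPM. Tmem87a was at 51.5 ± 3.07 TPM, Kcnk2 at 29.6 ± 6.26, Kcnk4 at 23.2 ± 4.11, Kcnk10 at 15.9 ± 1.64, and Trpv4, an osmotically gated channel, at 5.62 ± 1.16. Of the hair cell channel genes, Tmc1 and Tmc2 stayed under the filter, with highest values of 1.16 and 0.708 TPM.

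**Figure D3:**
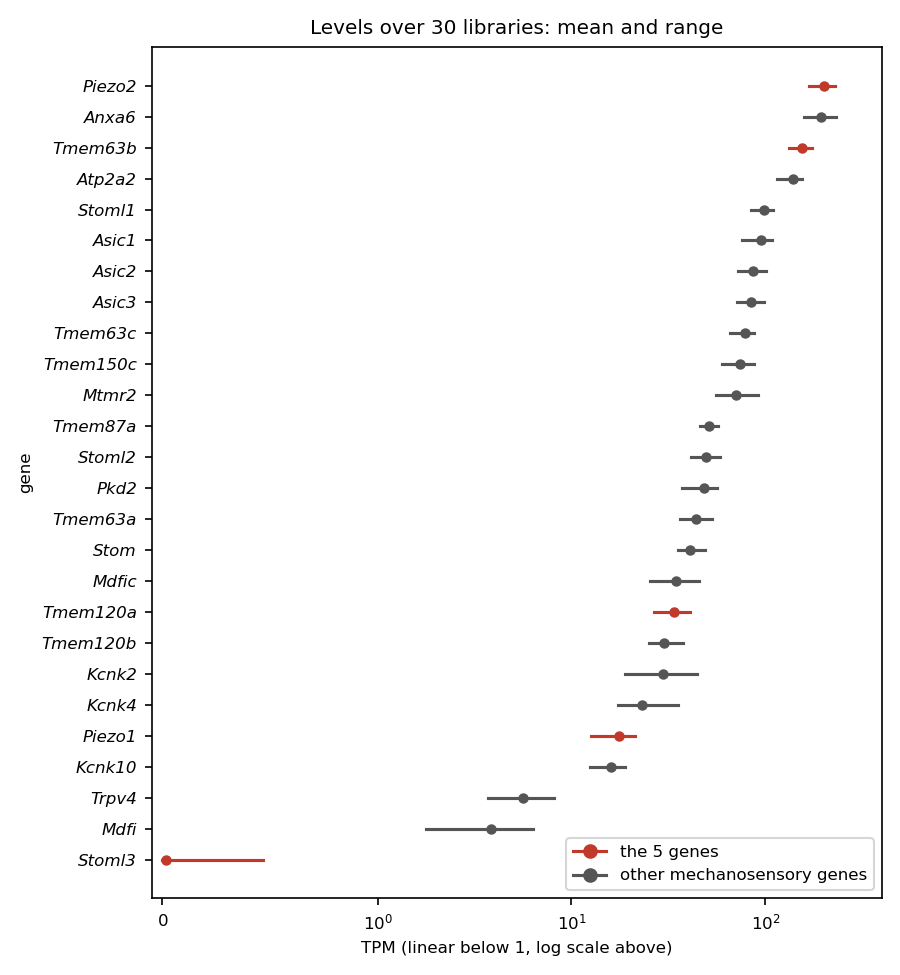
Mean (point) and range (line) over 30 libraries, in TPM (x axis, linear below 1 and logarithmic above), of the 5 genes (red) and the 21 tested genes of the other mechanosensory list (grey), ordered by mean. Piezo2 is at the top at 199.7 TPM and Stoml3, whose zeros need not mean a missing transcript, is at the bottom.

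The spread over libraries was set beside that of other genes. The coefficient of variation over the 30 libraries was 7.34% for Tmem63b, 8.11% for Piezo2, 10.1% for Tmem120a and 12.05% for Piezo1, where the median of 11541 coding genes with a mean of at least 10 TPM was 9.46%. After each library was rescaled to its protein-coding total, these values were 4.59%, 5.17%, 8.58% and 11.2%, and the median was 8.18%. The residual SD within groups was 0.12 on the log2(TPM + 1) scale for Piezo2 and for Tmem63b, 0.15 for Tmem120a and 0.18 for Piezo1.

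Piezo2 and Tmem63b varied together. Over the 30 libraries their log2 values had a Pearson r of 0.832 and a Spearman rho of 0.811, and r was 0.785 without the 2 libraries farthest from the Tmem63b median. The ratio of Piezo2 to Tmem63b had a coefficient of variation of 4.58%, with extremes of 1.19 and 1.41. All genes of a library share the size of its coding fraction, which differed between libraries. Piezo2 correlated with that fraction at r = 0.796 and Tmem63b at r = 0.793. After rescaling to the coding total the r between them was 0.566. The correlation of deviations from the group means was 0.904, or 0.722 after rescaling. Piezo1 followed neither, at r = 0.076 with Piezo2 and −0.052 with Tmem63b, and after rescaling these were −0.415 and −0.650. Rescaled coding genes also sum to a fixed total, so a larger share of some leaves less for the others. Piezo1 and Tmem120a had an r of 0.442, or 0.308 after rescaling. These correlations describe the libraries and carry no test.

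Among the 15 cell type lists, the highest r of Piezo2 and of Tmem63b over all 30 libraries was with sensory neurons, and that of Piezo1 was with endothelium. Piezo2 correlated at r = 0.861 (rho = 0.849) with the mean log2 level of 12 sensory neuron markers, and Tmem63b at r = 0.910 (rho = 0.924). After rescaling to the coding total these were 0.693 and 0.809. Piezo2 had an r of 0.760 with 19 genes of touch and proprioceptive neurons and 0.853 with 12 nociceptor genes, so the r was not higher for the touch list. After rescaling these were 0.403 and 0.661. Both genes were lower where spinal cord glia genes were higher, at r = −0.517 for Piezo2 and −0.609 for Tmem63b. Piezo1 correlated at r = 0.795 (rho = 0.755) with 12 endothelial genes, r = 0.703 without the 2 farthest libraries and r = 0.759 after rescaling. Piezo1 also had an r of 0.668 with fibroblast genes, 0.662 with Schwann cell genes, 0.536 with macrophage genes and 0.491 with genes of pericytes and smooth muscle. Without the 2 libraries farthest from the median of each list these were 0.460, 0.560, 0.763 and 0.517. The r with macrophage genes was then above that with endothelial genes. With rescaling and the same omission, it was 0.665 for macrophage genes and 0.711 for endothelial genes. With spinal cord glia genes the r of Piezo1 was 0.415, or 0.570 after rescaling. For deviations from group means after rescaling, its r was 0.802 with spinal cord glia and 0.785 with endothelium. Its r with the neuron markers was −0.188, or −0.727 after rescaling. The r of Tmem63b with endothelial genes likewise was 0.163, or −0.675 after rescaling to that fixed coding total. With the 8 red blood cell genes the r of Piezo1 was −0.003 (rho = 0.257), or 0.387 without the 2 farthest libraries. Whether cell makeup or the coding share of a library has a part in these relations was not tested. The highest r of Tmem120a with a cell type list was 0.479 (endothelium), or 0.251 after rescaling, and its r with the list of other mechanosensory genes was 0.551, or 0.291 after rescaling.

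**Figure D4:**
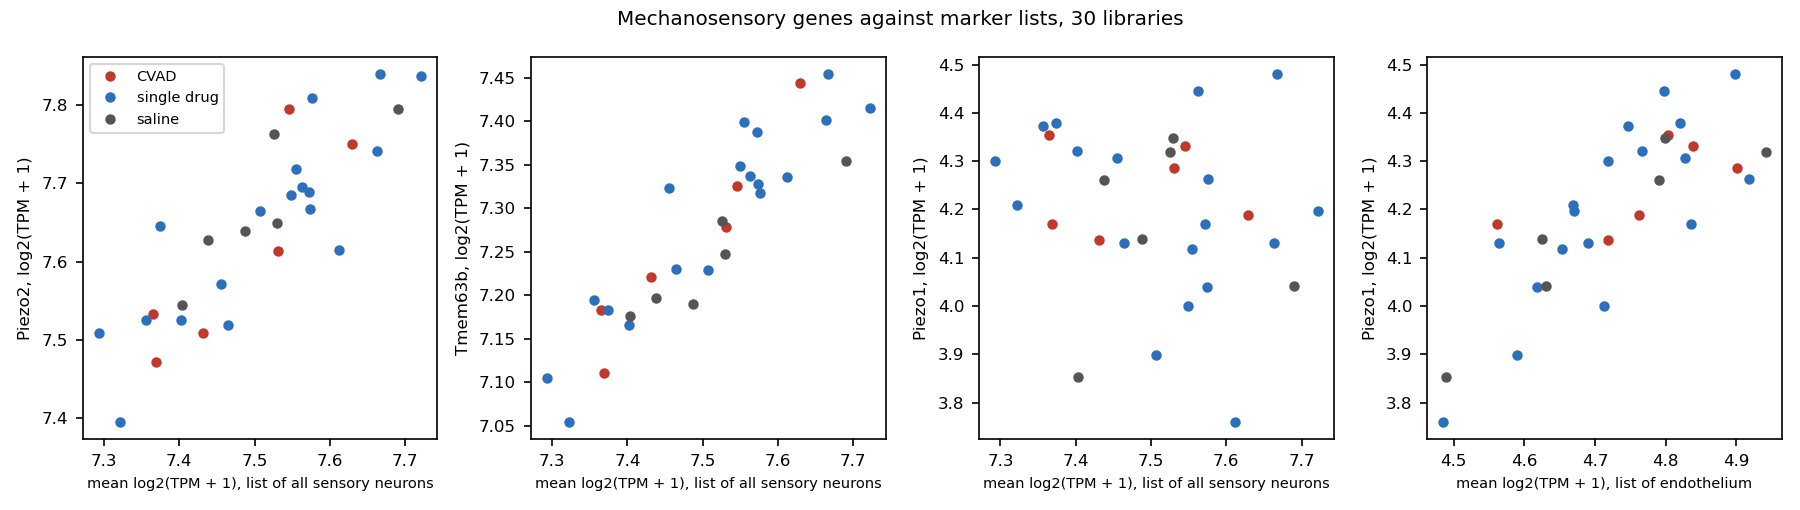
Each point is 1 of 30 libraries (red CVAD, blue single drugs, grey saline). The first 3 panels plot Piezo2, Tmem63b and Piezo1 against the mean of 12 sensory neuron markers and the last plots Piezo1 against that of 12 endothelial markers, all in log2(TPM + 1); r is 0.861, 0.910, −0.188 and 0.795 from left to right, and the 3 colours are mixed.

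**Figure D5:**
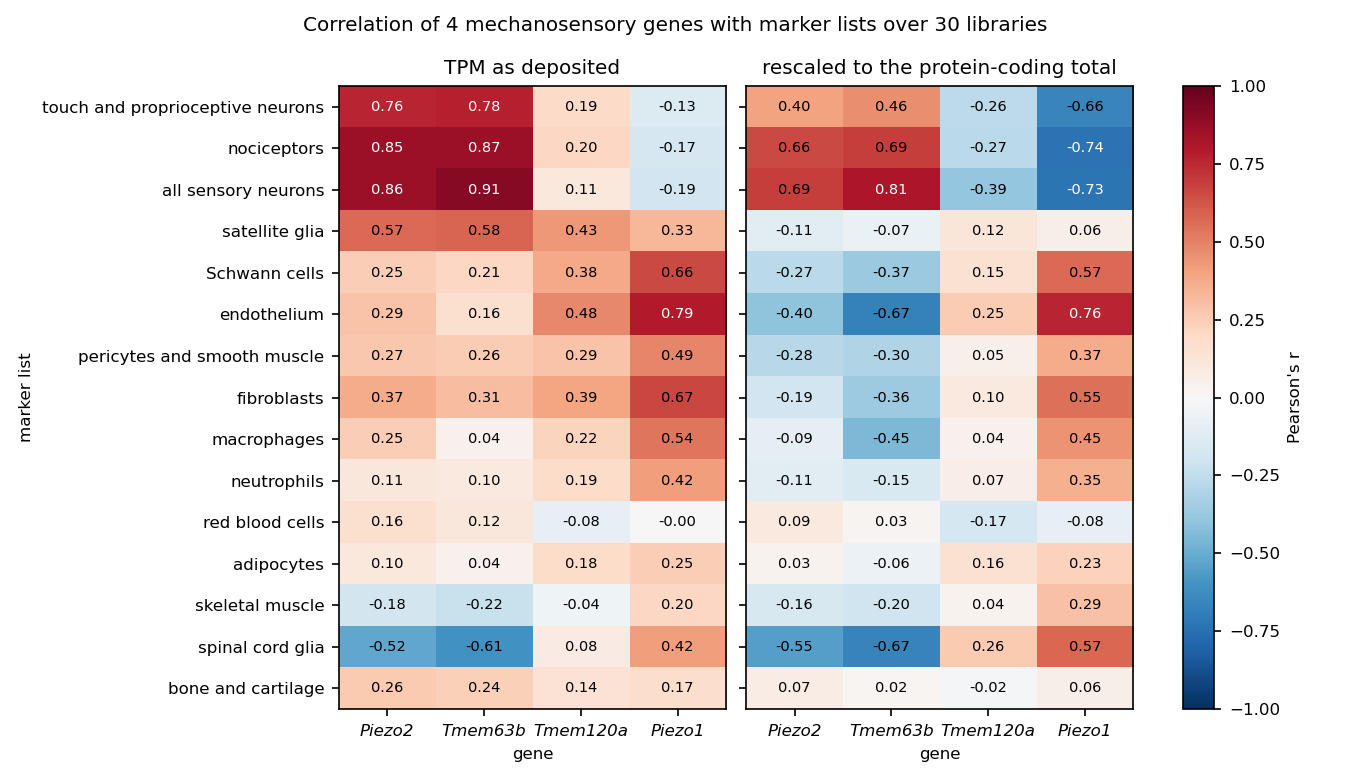
Pearson's r over 30 libraries between 4 genes (columns) and the mean log2 level of 15 marker lists (rows), for TPM as deposited (left) and rescaled to the protein-coding total (right). Piezo2 and Tmem63b are at 0.861 and 0.910 with sensory neurons on the left, and Piezo1 is at 0.795 with endothelium on the left and 0.759 on the right.

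The summed levels of the neuron and endothelial lists overlapped between each drug and saline of its day. The summed TPM of the 12 neuron markers was 2118 to 2580 in CVAD, 2195 to 2669 in cyclophosphamide, 2128 to 2631 in vincristine, 2087 to 2461 in doxorubicin, 2129 to 2481 in dexamethasone and 2376 to 2719.7 in saline on day 8. Taken relative to the mean of the neuron list in each library, Piezo2 had log2 fold changes of −0.09 to 0.05 over the 8 comparisons with saline, with an SE of 0.051, and Tmem63b 0.03 to 0.11, with an SE of 0.042. None passed in limma, with lowest adjusted p-values of 0.944 and 0.802. The Tmem63b values were all above 0, the largest being 0.11 ± 0.042 for dexamethasone on day 8 (limma adjusted p = 0.998). With coding genes alone, rescaled, Tmem120a was at 0.23 ± 0.10 for cyclophosphamide on day 8 (limma adjusted p = 0.683). The counts of unadjusted p-values above are for TPM as deposited and were not repeated for the rescaled values. The summed TPM of the 12 endothelial markers was 354 to 429 in CVAD, 351 to 399 in cyclophosphamide, 351 to 456 in vincristine, 365 to 443 in doxorubicin, 379 to 419.7 in dexamethasone and 376 to 445 in saline on day 8. Some other lists had groups that did not overlap with saline. On day 8 the 8 neutrophil genes summed to 59.4 to 87.2 TPM in CVAD and 106 to 158 TPM in cyclophosphamide, against 199 to 336 TPM in saline. S100a8 and S100a9 of that list were at 0 in every library and add nothing to the sums. The 8 genes of pericytes and smooth muscle summed to 302 to 343 TPM in vincristine and 298 to 347 TPM in doxorubicin, against 349 to 387 TPM in saline on that day. The 8 bone and cartilage genes summed to 42.4 to 62.3 TPM in cyclophosphamide, against 104 to 131 TPM in saline on day 8, and the 8 spinal cord glia genes to 86.4 to 98.4 TPM in cyclophosphamide, against 105 to 256 TPM in saline on day 2. The part of these lists in the values of the 4 genes was not tested.

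The coding genes whose log2 values followed each gene most closely over the 30 libraries were chosen among 11347 with a mean of at least 10 TPM. For Piezo2 they were Samd14 (r = 0.911), Limk1 (0.911), Rbx1 (0.906) and Syt7 (0.904), and after rescaling to the coding total these were 0.783, 0.781, 0.713 and 0.770. For Tmem63b they were Plcb3 (0.923), Nacad (0.921), Fam219a (0.921) and Mapre3 (0.920), or 0.819, 0.817, 0.803 and 0.777 after rescaling. For Piezo1 they were Bicc1 (0.867), Adgra2 (0.860), Podxl (0.846) and Ephb4 (0.842), or 0.855, 0.849, 0.808 and 0.802. For Tmem120a they were Ngef (0.746), Vps37a (0.690), Lurap1l (0.689) and Dnajc16 (0.682), or 0.654, 0.558, 0.592 and 0.542. All libraries enter each value, and none of these carries a test.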

How the data were processed

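Total RNA of the ganglia was sequenced as stranded libraries after depletion of ribosomal RNA, per the labels' protocols. Tools named per the submitters' processing notes are StringTie 2.2.1, STAR 2.7.10b and FastQC 0.12.1, beside 2 builds, GRCm39 and mm10, with no role given. The authors deposited 1 table of TPM per gene, whose columns summed to 999910 to 999941. Its coordinates for the 5 genes matched GRCm38 in 0 of 5 cases and are printed as given. TPM keep no depth, so the depth is unknown and no counting interval was computed.

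All 30 columns were used, in groups of drug and day as labelled. Genes with at least 1 TPM in at least 3 libraries (25434) were analysed as log2(TPM + 1), which understates changes of low genes. One limma 3.58.1 model (R 4.3.3) with a mean per group and a trend in the variance was fitted to all libraries. It was also run on simulated data in which genes vary independently, unlike in these libraries. No result here rests on that run. P-values are 2-sided, adjusted by the Benjamini-Hochberg method over all genes tested, with a threshold of 0.05. For a repeated symbol in a list the most abundant entry was used. The 5 genes, the lists and the alternatives were chosen with earlier results of these data known. By rule the text names all 5 genes against saline, the gene of smallest p in other comparisons, the gene of smallest p of the mechanosensory list, and the 4 genes of highest r with each gene. Alternatives were a pseudocount of 0.1 TPM, no filter, median-ratio scaling, coding genes alone (rescaled), a model per day, library weights, a term for libraries S1 to S8, levels relative to neuron markers, and the omission of each library. Figures were drawn with matplotlib 3.10.9. Values of 1 gene of the mechanosensory list are not reported here.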

Additional observations from a re-analysis of the deposited data

How the results depend on the processing

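The 19 counts of called genes (18 comparisons and the F test) were 0 under all alternatives that gave a value; a model per day gives neither the F test nor the differences between days. Over 46 single-gene results the 1740 alternative values held 0 calls, with a lowest adjusted p of 0.333 (Tmem120a, cyclophosphamide against saline, day 2, library weights). Of 42 log2 fold changes, 20 kept their sign under every setting. The values that turned sign were small, and the cause was not tested. With median-ratio scaling they were Tmem120a −0.0061 and Tmem63b −0.039 for CVAD on day 2, and Piezo1 −0.0022 for dexamethasone on day 2 and −0.010 for vincristine. With coding genes alone Tmem63b was at −0.011 for CVAD on day 2. With library weights Tmem63b was at 0.0380 for CVAD on day 8 and 0.0020 for doxorubicin. With the term for S1 to S8, Tmem63b was at −0.066 for CVAD and Piezo2 at −0.034 for cyclophosphamide, both on day 2. S1 to S8 hold every CVAD and cyclophosphamide library of day 2 and no saline library. The term is thus set only by dexamethasone replicates 1 and 2 against replicate 3 of day 2. It can hardly be told apart from CVAD or cyclophosphamide on day 2, so its 0 calls for them carry little weight. Relative to neuron markers, Piezo2 was at −0.012 for cyclophosphamide on day 2, 0.0031 for CVAD, 0.046 for vincristine and 0.00051 for dexamethasone on day 8, and −0.0067 between saline days. On the same scale Tmem63b was at 0.065 for CVAD, 0.059 for vincristine and 0.029 for doxorubicin on day 8, and 0.039 for the dexamethasone difference between days. Piezo1 was there at 0.062 for CVAD and 0.026 for doxorubicin on day 8. Rescaling moved the median of all tested genes by over 0.1 in the saline day comparison (−0.07 relative to neuron markers, 0.07 as reported), the cyclophosphamide difference between days (0.0029 and −0.11) and that of dexamethasone (0.05 and −0.08).

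Leaving out each library in turn turned the sign in 18 results. Against saline on day 2 these ranged over −0.035 to 0.187 for Tmem120a under CVAD, −0.0049 to 0.159 for Piezo2 under cyclophosphamide, and −0.054 to 0.150 for Piezo1 and −0.058 to 0.024 for Piezo2 under dexamethasone. Under CVAD on day 8 they ranged over −0.103 to 0.050 for Piezo1, −0.125 to 0.036 for Piezo2, −0.0081 to 0.201 for Tmem120a and −0.078 to 0.089 for Tmem63b. Under vincristine they ranged over −0.097 to 0.194 for Piezo1, −0.081 to 0.016 for Piezo2 and −0.089 to 0.046 for Tmem63b. Under doxorubicin they ranged over −0.162 to 1.4e-05 for Piezo1, −0.204 to 0.0020 for Piezo2 and −0.109 to 0.027 for Tmem63b. On day 8 Piezo1 ranged over −0.021 to 0.173 and Tmem63b over −0.030 to 0.073 under dexamethasone, Tmem63b over −0.045 to 0.073 under cyclophosphamide, and Tmem63b over −0.030 to 0.151 for CVAD against doxorubicin. With no filter Stoml3 entered with a log2 fold change of 0.18 for vincristine (adjusted p = 0.901 in limma), from 1 library above 0. No paired analysis was possible because the labels give no replicate number that ties libraries of different groups together. Depth is unknown, so no limit from counting can be given.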

Other observations

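Some other mechanosensory genes had unadjusted p-values under 0.05 outside the comparisons with saline, and were named after their values were seen. Asic2, an acid-sensing channel subunit, was at 76.8 TPM in CVAD and 92.0 TPM in cyclophosphamide on day 2 (log2 fold change −0.25 ± 0.10, limma adjusted p = 1). Pkd2, the polycystin, was at 53.2 TPM in CVAD and 43.9 TPM in cyclophosphamide on day 8 (0.28 ± 0.12, limma adjusted p = 0.914). Its groups did not overlap, and neither did those of 10.8% of all tested genes in that comparison. For Kcnk10, the TREK-2 channel, the CVAD difference of day 8 minus that of day 2 was 0.40 ± 0.17 (limma adjusted p = 0.485). None passed the threshold. Each was the 1 gene of the 21 tested in the list with an unadjusted limma p under 0.05 in its comparison. Over all tested genes that share was 3.83%, 5.34% and 8.63%, in the same order.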
